A study of Mus musculus with 12 samples.

Results

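The 9 genes described here encode C-type lectin receptors of myeloid cells: Clec4e (Mincle), Clec4d (MCL), Clec7a (Dectin-1), Clec4n (Dectin-2), Clec5a (MDL-1), Clec12a (MICL), Clec4a2 (DCIR) and the DCIR paralogues Clec4a1 and Clec4a3. They were chosen by symbol, as the Dectin and Clec4 group, from the 37775 genes of a count table, and all 9 passed the filter on low counts that left 22118 genes for testing. The table covers 4 fractions of monocyte-macrophage lineage cells (Mo-Macs) with 3 libraries each, 12 in all, sorted from ear skin of wild-type BALB/c mice. All libraries came from IgE-CAI, an IgE-dependent chronic allergic inflammation: mice were given 300 µg of anti-TNP IgE into a vein, 10 µg of TNP-conjugated ovalbumin was injected into the ear skin the next day, and the lesion was taken on day 5 after this challenge. From CD45+CD11b+SiglecF-Ly6G- cells, Ly6ChiPD-L2lo cells were sorted as classical monocytes, Ly6ChiPD-L2hi cells as early classical monocyte-derived macrophages (CMDMs), Ly6CloPD-L2hi cells as late CMDMs and Ly6CloPD-L2lo cells as resident-like macrophages. The fractions were defined by these surface proteins and not by lineage tracing, and no library of unchallenged skin was analysed here. The labels number the libraries but do not say whether each came from its own mouse, so the p-values measure the spread between libraries.

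C-type lectin receptors of this group sit on the surface of monocytes, macrophages, neutrophils and dendritic cells and recognise sugars and lipids of microbes, and in some cases material released from dying cells. Clec4e, Clec4d and Clec4n signal through the adaptor FcRγ (Fcer1g), Clec5a through DAP12 (Tyrobp) and DAP10 (Hcst), and Clec7a through an activating motif in its own tail. These signals use the kinase Syk and the scaffold protein Card9 to induce cytokines. Clec12a and Clec4a2 carry an inhibitory motif that recruits the phosphatases SHP-1 (Ptpn6) and SHP-2 (Ptpn11).

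All 9 genes lie on mouse chromosome 6 (GRCm38). Clec4a1, Clec4a3, Clec4a2, Clec4n, Clec4d and Clec4e follow each other in this order within chr6:122921848-123289870, with Clec4a4, Clec4b1 and Clec4b2 between them. Clec12a (chr6:129342691-129365303) and Clec7a (chr6:129461591-129472779) lie in the natural killer gene complex, and Clec5a lies apart at chr6:40574894-40585821. In depth-scaled counts all 9 members were lower in early CMDMs than in classical monocytes, but in late CMDMs genes of the Clec4 cluster differed. There Clec4a3 was called higher than in classical monocytes, Clec4d and Clec4e lower, and Clec4a1, Clec4a2 and Clec4n were not called. The promoter sequences below are shown for this reason. Each is the 250 bases before a RefSeq transcript start (GRCm38.p6), 5′ to 3′ on the gene's own strand, and capitals mark GAGGAA, the core bound by the myeloid factor PU.1, on either strand. They were read at chr6:123289872-123290121 (reverse strand) for Clec4e, chr6:123261857-123262106 (forward strand) for Clec4d, chr6:129472780-129473029 (reverse strand) for Clec7a, chr6:129349994-129350243 (forward strand) for Clec12a, chr6:122921598-122921847 (forward strand) for Clec4a1 and chr6:122952394-122952643 (forward strand) for Clec4a3.
Clec4e: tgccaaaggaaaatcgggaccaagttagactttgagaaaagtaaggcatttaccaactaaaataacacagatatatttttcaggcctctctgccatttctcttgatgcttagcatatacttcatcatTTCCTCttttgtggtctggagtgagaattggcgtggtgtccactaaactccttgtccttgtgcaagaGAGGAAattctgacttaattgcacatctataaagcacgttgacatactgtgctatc
Clec4d: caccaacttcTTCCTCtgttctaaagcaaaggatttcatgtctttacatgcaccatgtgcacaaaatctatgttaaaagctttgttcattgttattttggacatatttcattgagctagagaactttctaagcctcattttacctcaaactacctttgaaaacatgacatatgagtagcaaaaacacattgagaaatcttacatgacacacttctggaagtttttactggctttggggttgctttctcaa
Clec7a: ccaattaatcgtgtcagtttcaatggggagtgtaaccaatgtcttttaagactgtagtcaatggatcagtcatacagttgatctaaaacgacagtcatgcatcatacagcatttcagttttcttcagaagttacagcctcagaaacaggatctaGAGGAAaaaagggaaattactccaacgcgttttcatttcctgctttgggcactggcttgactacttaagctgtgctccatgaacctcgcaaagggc
Clec12a: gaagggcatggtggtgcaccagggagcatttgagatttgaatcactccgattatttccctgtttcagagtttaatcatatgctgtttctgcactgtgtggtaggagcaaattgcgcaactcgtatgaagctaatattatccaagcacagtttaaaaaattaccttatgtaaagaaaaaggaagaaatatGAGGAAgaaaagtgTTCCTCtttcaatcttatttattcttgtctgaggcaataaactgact
Clec4a1: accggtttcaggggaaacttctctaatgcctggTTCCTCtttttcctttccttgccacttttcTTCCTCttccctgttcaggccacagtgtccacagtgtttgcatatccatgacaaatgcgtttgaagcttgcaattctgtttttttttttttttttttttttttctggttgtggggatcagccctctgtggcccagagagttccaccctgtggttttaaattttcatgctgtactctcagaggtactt
Clec4a3: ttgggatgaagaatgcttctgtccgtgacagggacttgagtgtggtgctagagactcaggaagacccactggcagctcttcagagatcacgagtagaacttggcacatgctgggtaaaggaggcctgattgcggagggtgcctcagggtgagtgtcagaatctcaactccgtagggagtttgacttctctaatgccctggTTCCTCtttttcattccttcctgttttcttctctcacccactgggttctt

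RefSeq windows were found for 8 of the 9 genes, and 7 of these 8 held GAGGAA, against 23.3% of all 32851 windows of this length. The exception was Clec4a2, and the first of the RefSeq starts of Clec4a3 also had no match in its window. Neither of these windows is shown above. The letters TTNNGNAA, bound by C/EBP factors, were found in 5 of the 8 (Clec4a2, Clec4d, Clec4e, Clec5a and Clec12a), against 36.8% of all windows. The STAT6 pattern of TTC and GAA with 4 bases between them was found in Clec4a1, Clec5a and Clec7a, against 5.85% of all windows. Both strands were searched. A member counted as a match if any of its windows matched (10 windows for 8 genes), while the percentages count single windows. These matches describe letters only, and the patterns were found in genes that were low as well as in genes that were high in the macrophage fractions.

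The libraries held between 12537178 and 19844113 counts, and each member had between 113 counts (Clec5a in early CMDMs) and 11418 counts (Clec4e in classical monocytes). Of the sorting marker genes, Ly6c2 had means of 492 CPM in classical monocytes and 49.3 in early CMDMs, both sorted as Ly6Chi. The Ly6Clo fractions had lower means, 19.1 (late CMDM) and 17.5 (resident-like). Within the Ly6Chi gate, Ly6c2 was called 9.98-fold lower in early CMDMs than in classical monocytes. Pdcd1lg2 had means of 21.4 CPM (early CMDM) and 32.2 (late CMDM) in the PD-L2hi fractions. The PD-L2lo fractions had 14.1 (classical monocyte) and 9.60 (resident-like). The macrophage gene Csf1r was at 291 CPM or more in every library. RNA of other cells differed between the fractions. Summed over 6 keratinocyte genes, early CMDM libraries held 17096 to 27284 CPM against 1871 to 4050 CPM in the other fractions, and early CMDMs exceeded each other fraction in all 6 genes, every difference being called. The 6 fibroblast genes summed to 2988 to 5588 CPM in classical monocytes and early CMDMs and to 276 to 499 CPM in the others, and 7 T cell genes to 163 to 229 CPM in classical monocytes and at most 51.9 CPM elsewhere. The 8 dendritic cell genes summed to 642 to 686 CPM in resident-like macrophages and at most 337 CPM elsewhere. Cd209a alone was at 523 to 573 CPM in resident-like macrophages, against at most 177 elsewhere. Flt3 and Itgae were highest in classical monocytes, at means of 68.9 and 5.68 CPM against 27.0 and 1.35 in resident-like macrophages. Against classical monocytes, 2 of the 8 were called higher in the resident-like fraction and 2 lower, against 10.8% and 12.9% of all genes. The Langerhans cell gene Cd207, which is not among the 8, was at 679 to 920 CPM in resident-like macrophages and at most 75.9 elsewhere. The 8 basophil and mast cell genes summed to 79.8 to 172 CPM in resident-like macrophages, against at most 89.1 CPM elsewhere. The 10 neutrophil genes summed to 76.3 to 139 CPM in all libraries, with Ly6g at 0 in 3 fractions and at 0.431 CPM or less in classical monocytes. Csf3r made up most of this sum (fraction means of 54.9 to 105 CPM), and other genes of the list differed between the fractions. Retnlg had a mean of 43.9 CPM in resident-like macrophages and at most 5.36 elsewhere. Mmp8 had 16.6 in classical monocytes and at most 2.97 elsewhere, and S100a9 had 10.4 in early CMDMs and at most 1.78 elsewhere. The 9 monocyte and macrophage genes summed to 7819 ± 1041 CPM in classical monocytes and 9485 ± 543 in resident-like macrophages. The sums were 2877 ± 504 CPM in early and 6199 ± 474 in late CMDMs. In early CMDMs 5 of the 9 were called lower than in classical monocytes and 1 higher, against 20.6% and 24.2% of all genes. Ccr2 had means of 439 CPM in resident-like macrophages, 390 in classical monocytes, 129 in early and 107 in late CMDMs. The paper's single-cell clusters were Ccr2-low for resident-like cells and Ccr2-high for CMDMs.

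Counts of 10 pan-leukocyte genes (Ptprc, Cd53 and others used by all white blood cells) made up 4485 ± 139 CPM in classical monocytes, 1384 ± 344 in early CMDMs, 2686 ± 185 in late CMDMs and 4137 ± 51.6 in the resident-like fraction (mean ± SD, n = 3). In bulk samples fewer cells of a type and less RNA per cell cannot be told apart. The members were therefore read on 2 scales: depth-scaled counts after TMM normalization (CPM), which compares a gene with the whole library, and counts per 1000 counts of the 10 pan-leukocyte genes, which compares it with leukocyte RNA of the same library. The second scale takes these 10 genes as constant per unit of leukocyte RNA, but they did not move as one. In early CMDMs against classical monocytes all 10 were lower in CPM, from 2.37-fold (Lcp1) to 6.36-fold (Ptprc), and after the scaling 4 were still called higher and 3 lower. The scaling moved the median log2 fold change of all genes by 1.74 in early CMDMs against classical monocytes, by 0.74 in late CMDMs against classical monocytes, by -0.99 in late against early CMDMs, by -0.63 in resident-like macrophages against late CMDMs, by -1.62 against early CMDMs and by 0.12 against classical monocytes. The part of keratinocyte and fibroblast RNA in the values of the members was not tested.

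In CPM, all 9 members were called lower in early CMDMs than in classical monocytes, between 1.32-fold (Clec4a3) and 6.89-fold (Clec12a), with a median log2 fold change of -1.89 against -0.013 over all genes tested. Of all genes tested, 20.6% were called lower and 24.2% higher in this comparison (edgeR quasi-likelihood test, Benjamini-Hochberg adjusted p under 0.05, used throughout). With DEGES normalization, which removes genes called different before it sets the scale, 8 were called, and Clec4a3 was not (-0.31, adjusted p = 0.0984). Of the marker genes of other cells, 7 of 8 dendritic cell genes (median -1.92) and 7 of 7 T cell genes (median -2.66) were called lower in the same comparison, and their part in the values of the members was not tested. In late CMDMs against classical monocytes 4 of these dendritic cell genes and all 7 T cell genes were called lower, and in resident-like macrophages against classical monocytes all 7 T cell genes and 2 dendritic cell genes were, while 2 other dendritic cell genes were called higher. In late CMDMs against classical monocytes, 4 members were lower (Clec4d, Clec4e, Clec7a and Clec12a) and 1 was higher (Clec4a3), against 17.5% and 18.1% of all genes. In resident-like macrophages against classical monocytes, 3 were lower and 1 higher, against 12.9% and 10.8%. Against late CMDMs, 5 were called higher in resident-like macrophages, against 12.7% of all genes called higher and 15.4% called lower. All 9 were higher in resident-like macrophages than in early CMDMs, against 21.4% of all genes called higher and 25.1% called lower, and 5 were higher in late than in early CMDMs, against 14.4% and 17.5%.

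Per unit of leukocyte RNA the members separated in direction. In early CMDMs against classical monocytes 3 were called higher (Clec4a1, Clec4a2 and Clec4a3) and 3 lower (Clec4d, Clec4e and Clec12a), where 90.8% of all genes were higher and 2.09% lower. In late CMDMs against classical monocytes 4 were higher, the same Clec4a genes and Clec5a, and 4 were lower, Clec4d, Clec4e, Clec7a and Clec12a, where 59.8% of all genes were higher and 5.25% lower. In resident-like macrophages against classical monocytes 2 were higher (Clec4a2 and Clec5a) and 3 lower (Clec4d, Clec4e and Clec7a), where 9% of all genes were higher and 7.71% lower.

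**Figure D1:**
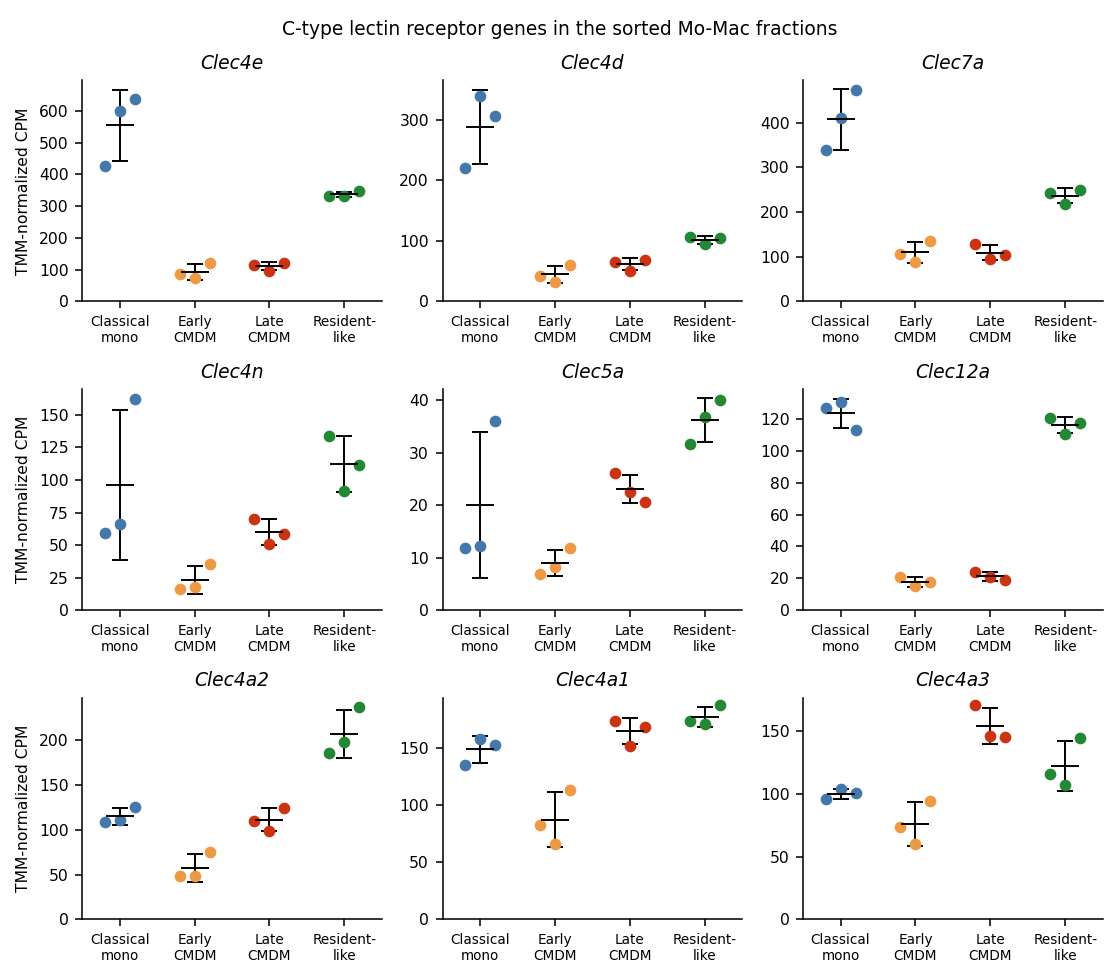
TMM-normalized CPM (linear axes from 0) of the 9 lectin receptor genes in each library, with points for the 3 libraries of a fraction in the order of their replicate numbers and bars for the mean ± SD. Clec4e, Clec4d and Clec7a were highest in classical monocytes, Clec12a was high in classical monocytes and resident-like macrophages, and Clec4a1 and Clec4a3 in late CMDMs and resident-like macrophages lay above their early CMDM levels.

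Among the activating receptors, Clec4e, which recognises mycobacterial glycolipid and material from dead cells, was at 426, 599 and 637 CPM in classical monocytes, 85.4, 74.2 and 121 in early CMDMs, 114, 96.4 and 122 in late CMDMs and 331, 333 and 346 in resident-like macrophages. The classical monocyte libraries lay above all others, the resident-like libraries came next, and the libraries of the CMDM fractions overlapped. Clec4e was 5.91-fold lower in early CMDMs than in classical monocytes (log2 fold change -2.56 ± 0.18 SE, adjusted p = 2.63e-08) and 4.99-fold lower in late CMDMs (-2.32 ± 0.18, adjusted p = 9.57e-08). Per 1000 pan-leukocyte counts its libraries were at 97.5, 135 and 137 in classical monocytes, 66.0, 67.7 and 68.8 in early CMDMs, 41.6, 38.9 and 43.1 in late CMDMs and 78.8, 81.1 and 84.3 in resident-like macrophages. On this scale the 4 fractions did not overlap, and late CMDMs were the lowest.

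Clec4d, the partner of Clec4e at the cell surface, was at 220, 339 and 306 CPM in classical monocytes, 42.2, 32.8 and 60.1 in early CMDMs, 65.3, 50.3 and 69.1 in late CMDMs and 107, 94.6 and 105 in resident-like macrophages. Only the early and late CMDM libraries overlapped. It was 6.40-fold lower in early CMDMs than in classical monocytes (log2 fold change -2.68 ± 0.21, adjusted p = 1.23e-07), 4.68-fold lower in late CMDMs (-2.23 ± 0.21, adjusted p = 1.06e-06) and 2.82-fold lower in resident-like macrophages (-1.50 ± 0.20, adjusted p = 5.68e-05). Under pan-leukocyte scaling these differences were -0.99, -1.49 and -1.38 on the log2 scale, in the same direction and all called. Its libraries were at 50.3, 76.3 and 65.9 per 1000 pan-leukocyte counts in classical monocytes, 32.7, 29.9 and 34.1 in early CMDMs, 23.8, 20.3 and 24.4 in late CMDMs and 25.4, 23.0 and 25.6 in the resident-like fraction. Early CMDMs thus lay between classical monocytes and the Ly6Clo fractions, which overlapped. Clec4e fell less than Clec4d between classical monocytes and resident-like macrophages, by 0.72 on the log2 scale. The log2 ratio of Clec4e to Clec4d counts, which no library scaling changes, was between 0.82 and 1.06 in classical monocytes, 1.01 and 1.18 in early CMDMs, 0.81 and 0.94 in late CMDMs and 1.63 and 1.82 in resident-like macrophages. The resident-like libraries thus stood above the other 9 in the proportion of Clec4e to Clec4d.

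Clec7a, the receptor for fungal β-glucan, was at 338, 411 and 473 CPM in classical monocytes, 107, 88.0 and 135 in early CMDMs, 129, 95.8 and 103 in late CMDMs and 242, 217 and 249 in resident-like macrophages. In CPM the early and late CMDM libraries were intermingled (log2 fold change of late against early -0.0088 ± 0.16, adjusted p = 0.975). Clec7a was 3.71-fold lower in early CMDMs than in classical monocytes (-1.89 ± 0.16, adjusted p = 1.48e-07) and 3.73-fold lower in late CMDMs (-1.90 ± 0.16, adjusted p = 2.37e-07). Per unit of leukocyte RNA the 2 CMDM fractions parted. Its libraries were at 77.3, 92.5 and 102 per 1000 pan-leukocyte counts in classical monocytes and at 82.4, 80.3 and 76.8 in early CMDMs, which overlapped (log2 difference -0.18 ± 0.16, adjusted p = 0.278), and at 47.0, 38.6 and 36.4 in late CMDMs, below all of them (late against early -0.97 ± 0.16, adjusted p = 8.94e-06). Its fall in late CMDMs against classical monocytes was called on both scales.

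Clec4n, which binds fungal mannans, and Clec5a varied between the classical monocyte libraries. Clec4n was at 59.5, 66.7 and 162 CPM there, 16.8, 17.6 and 35.4 in early CMDMs, 70.4, 50.6 and 58.9 in late CMDMs and 134, 91.6 and 111 in resident-like macrophages. Clec5a was at 11.8, 12.3 and 36.0 CPM in classical monocytes, 6.99, 8.28 and 11.8 in early CMDMs, 26.0, 22.6 and 20.7 in late CMDMs and 31.6, 36.9 and 40.0 in resident-like macrophages. For both genes the third classical monocyte library was the high one, and the early CMDMs had the lowest mean. The call of Clec4n as lower in early CMDMs than in classical monocytes (log2 fold change -2.05 ± 0.41, adjusted p = 0.00216) became -1.44 (adjusted p = 0.00223) without that library. Under pan-leukocyte scaling it was lost, at -0.37 ± 0.30 (adjusted p = 0.248).

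Clec5a was called lower in early CMDMs than in classical monocytes (-1.15 ± 0.38, adjusted p = 0.0276), with overlapping libraries. Under pan-leukocyte scaling its sign turned to 0.57 ± 0.33 (adjusted p = 0.107, not called), with 4.41 ± 2.90 per 1000 pan-leukocyte counts in classical monocytes and 6.56 ± 1.09 in early CMDMs (SD, n = 3). In CPM the call was lost without classical monocyte library 3 (-0.42, adjusted p = 0.0895), without early CMDM library 1 (-0.99, adjusted p = 0.0965) and without early CMDM library 2 (-1.08, adjusted p = 0.108). Without classical monocyte library 3, the level of Clec5a in classical monocytes was instead called below that of late CMDMs (log2 difference 0.94, adjusted p = 0.000807) and below that of resident-like macrophages (1.58, adjusted p = 6.99e-06), where the 12-library values were 0.20 and 0.85 and were not called. Both genes were called higher in late than in early CMDMs, Clec4n by 1.36 ± 0.41 (adjusted p = 0.0279) and Clec5a by 1.35 ± 0.38 (adjusted p = 0.0177). Clec4n lost this call without early CMDM library 1 (adjusted p = 0.0912), early CMDM library 2 (0.137), late CMDM library 1 (0.0739) or late CMDM library 3 (0.0527), and Clec5a lost it without early CMDM library 1 (0.0683) or 2 (0.0882). Under pan-leukocyte scaling both differences were smaller and not called, at 0.44 for Clec4n and 0.40 for Clec5a.

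Of the receptors with an inhibitory motif, Clec12a, which binds uric acid crystals, had the widest range of the 9 genes over the fractions (2.79 on the log2 scale). It was at 127, 131 and 113 CPM in classical monocytes, 20.9, 15.0 and 17.8 in early CMDMs, 24.1, 20.8 and 18.9 in late CMDMs and 120, 111 and 117 in resident-like macrophages. The 6 CMDM libraries lay below the 6 libraries of the other fractions, which overlapped each other. Clec12a was 6.89-fold lower in early CMDMs (-2.78 ± 0.13, adjusted p = 2.19e-10) and 5.81-fold lower in late CMDMs (-2.54 ± 0.12, adjusted p = 5.14e-10) than in classical monocytes, and 5.47-fold higher in resident-like macrophages than in late CMDMs (2.45 ± 0.12, adjusted p = 1.56e-09). Resident-like macrophages and classical monocytes differed by -0.089 ± 0.11 (95% interval -0.31 to 0.14, adjusted p = 0.656), a sign that turned to 0.025 under pan-leukocyte scaling. Per 1000 pan-leukocyte counts Clec12a was at 28.9, 29.4 and 24.4 in classical monocytes, 16.2, 13.7 and 10.1 in early CMDMs, 8.76, 8.39 and 6.68 in late CMDMs and 28.7, 26.9 and 28.5 in the resident-like fraction. On this scale the late CMDM libraries lay below the early CMDM libraries as well. Against classical monocytes it was called lower in early CMDMs (-1.05 ± 0.18, adjusted p = 4.76e-06) and in late CMDMs (-1.80 ± 0.19, adjusted p = 4.01e-09) under pan-leukocyte scaling too.

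Clec4a2, the other inhibitory receptor, did not share the low late CMDM level of Clec12a. It was at 109, 111 and 126 CPM in classical monocytes, 48.2, 48.8 and 75.4 in early CMDMs, 110, 98.7 and 125 in late CMDMs and 186, 198 and 237 in resident-like macrophages. Late CMDMs and classical monocytes overlapped (log2 fold change -0.053 ± 0.16, adjusted p = 0.825), and the resident-like libraries lay above all others (0.85 ± 0.16 against classical monocytes, adjusted p = 0.000734). Under pan-leukocyte scaling Clec4a2 was called higher in early CMDMs (0.70 ± 0.16, adjusted p = 0.00022) and late CMDMs (0.69 ± 0.16, adjusted p = 0.000621) than in classical monocytes, so that the sign of both differences turned with the scale. Its libraries were at 24.9, 24.9 and 27.1 per 1000 pan-leukocyte counts in classical monocytes, 37.3, 44.6 and 42.7 in early CMDMs, 40.1, 39.8 and 43.9 in late CMDMs and 44.3, 48.2 and 57.7 in the resident-like fraction. The classical monocyte libraries were the lowest on this scale, below all 9 others. Of the 50-base windows of Clec4a2 transcripts, 6.69% also occurred in other genes, most of them in Clec4a4 (3.85%), so some of its reads could have been split. The level of Clec4a4 was low, between 2.47 and 16.2 CPM in all libraries.

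Clec4a1 and Clec4a3, DCIR paralogues without the inhibitory motif, were also at or above the level of classical monocytes in late CMDMs. Clec4a1 was at 135, 158 and 153 CPM in classical monocytes, 82.9, 65.8 and 113 in early CMDMs, 174, 152 and 168 in late CMDMs and 173, 171 and 187 in resident-like macrophages. Clec4a3 was at 95.4, 104 and 100 CPM in classical monocytes, 73.7, 59.9 and 94.2 in early CMDMs, 170, 146 and 145 in late CMDMs and 116, 107 and 145 in the resident-like fraction. For Clec4a3 the libraries of late CMDMs lay above the other 9 libraries, narrowly in the case of resident-like library 3, and those of Clec4a1 overlapped with classical monocytes and resident-like macrophages. Clec4a3 was called higher in late CMDMs than in classical monocytes (1.54-fold, log2 fold change 0.62 ± 0.15, adjusted p = 0.0033), while Clec4a1 was not (0.14 ± 0.15, 95% interval -0.14 to 0.43, adjusted p = 0.482).

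In CPM both were lower in early CMDMs than in classical monocytes, Clec4a1 by 0.77 ± 0.15 (adjusted p = 0.000502) and Clec4a3 by 0.39 ± 0.15 (adjusted p = 0.0387) on the log2 scale, and both signs turned under pan-leukocyte scaling. The CPM call of Clec4a3 was lost without classical monocyte library 1 (adjusted p = 0.0622), 2 (0.0919) or 3 (0.0703) and without early CMDM library 1 (0.121) or 2 (0.21). Per 1000 pan-leukocyte counts Clec4a1 was at 31.0, 35.6 and 32.9 in classical monocytes, 64.1, 60.1 and 64.1 in early CMDMs, 63.4, 61.2 and 59.2 in late CMDMs and 41.3, 41.6 and 45.6 in resident-like macrophages. Clec4a3 was at 21.8, 23.4 and 21.6 in classical monocytes, 57.0, 54.7 and 53.4 in early CMDMs, 62.1, 58.7 and 51.3 in late CMDMs and 27.5, 26.0 and 35.2 in resident-like macrophages. On this scale all 6 CMDM libraries of both genes lay above all 6 other libraries. The log2 differences from classical monocytes were 0.92 ± 0.15 (adjusted p = 2.66e-06) and 1.30 ± 0.16 (adjusted p = 1.98e-08) in early CMDMs and 0.89 ± 0.15 (adjusted p = 1.93e-05) and 1.36 ± 0.16 (adjusted p = 6.46e-08) in late CMDMs, for Clec4a1 and Clec4a3. These gains were smaller than the shift of the median gene in early CMDMs (1.74) and larger than it in late CMDMs (0.74). Resident-like macrophages differed from early CMDMs by -0.55 and -0.90 for Clec4a1 and Clec4a3, where the median gene shifted by -1.62. From late CMDMs they differed by -0.52 and -0.96, where it shifted by -0.63.

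**Figure D2:**
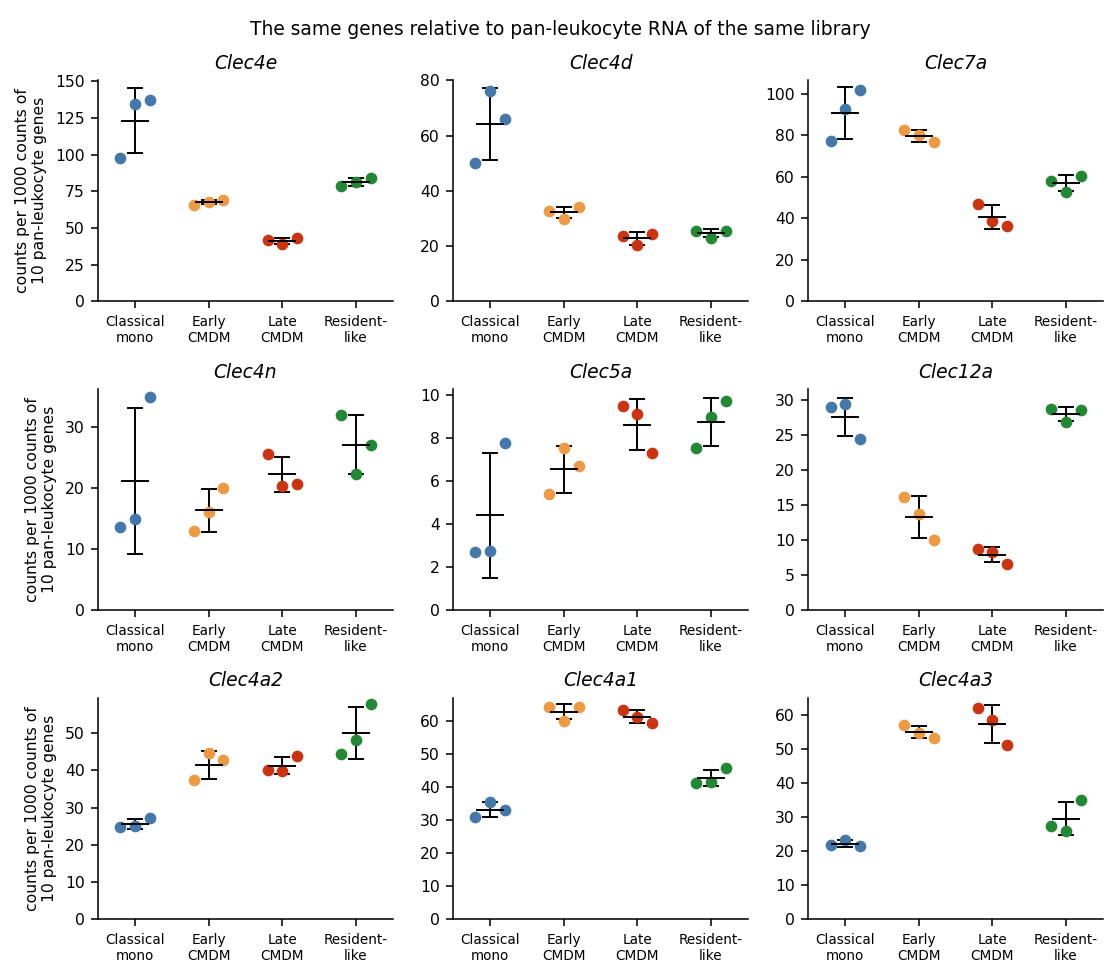
Counts of each member per 1000 counts of 10 pan-leukocyte genes in the same library (linear axes from 0, points for libraries in the order of their replicate numbers, bars for mean ± SD of 3 libraries). Clec4a1 and Clec4a3 were higher in all 6 CMDM libraries than in the 6 others, while Clec4e, Clec4d, Clec7a and Clec12a were lowest in late CMDMs by their means. Under this scaling 90.8% and 59.8% of all genes were called higher in early and late CMDMs than in classical monocytes. In resident-like macrophages 90% and 52.1% were called lower than in early and late CMDMs.

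Early and late CMDMs differed for 5 members in CPM, all higher in late CMDMs: Clec4a1, Clec4a2 and Clec4a3 by 0.91 to 1.02 on the log2 scale and Clec4n and Clec5a as given above, with a median over the 9 members of 0.91 against 0.021 over all genes. Clec4d (0.45 ± 0.20, adjusted p = 0.108), Clec4e (0.24 ± 0.17, adjusted p = 0.318) and Clec12a (0.25 ± 0.13, adjusted p = 0.155) were not called. Without early CMDM library 3, which had the highest pan-leukocyte level of its fraction at 1764 CPM, Clec4d (0.71, adjusted p = 0.00736) and Clec4e (0.47, adjusted p = 0.0275) were called higher in late CMDMs as well. Without early CMDM library 1 or 2, 3 members were called. Under pan-leukocyte scaling 4 members were called lower in late CMDMs, where 74.3% of all genes were lower and 0.619% higher, namely Clec4d, Clec4e, Clec7a and Clec12a. Clec4d, Clec4e and Clec12a turned from a positive CPM difference to -0.50, -0.71 and -0.74. Clec4a1, Clec4a2 and Clec4a3 stood between -0.035 and 0.060 on that scale.

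Resident-like macrophages exceeded late CMDMs in Clec12a, Clec4e (1.60 ± 0.18, adjusted p = 6.76e-06), Clec7a (1.11 ± 0.16, adjusted p = 8.91e-05), Clec4a2 (0.90 ± 0.16, adjusted p = 0.000475) and Clec4d (0.73 ± 0.20, adjusted p = 0.0136), with a median over the members of 0.90 against 0.0028 over all genes. Clec12a, Clec4e and Clec7a were also called higher under pan-leukocyte scaling, at 1.82, 0.98 and 0.49, where 2.76% of all genes were higher and 52.1% lower. On that scale Clec4a1 (-0.52, adjusted p = 0.00611) and Clec4a3 (-0.96, adjusted p = 2.64e-05) were called lower, where their CPM values were 0.11 ± 0.15 (adjusted p = 0.641) and -0.33 ± 0.15 (adjusted p = 0.107). The CPM call of Clec4d was lost without late CMDM library 2 (0.61, adjusted p = 0.0635), and Clec4a3 was called lower without resident-like library 3 (-0.47, adjusted p = 0.0401). Of other cells, all 7 tested basophil and mast cell genes were called higher in this comparison (median 2.32, and 6 of 7 under pan-leukocyte scaling), as were 5 of 8 dendritic cell genes (median 1.15). Both lists moved with these differences, and their part was not tested. Against early CMDMs, 2 members were higher and 4 lower under pan-leukocyte scaling (1.35% and 90% of all genes): Clec12a (1.08) and Clec4n (0.73) were higher, and Clec4a1, Clec4a3, Clec4d and Clec7a turned from higher to lower (-0.39 to -0.90).

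Classical monocytes and resident-like macrophages had similar pan-leukocyte levels, and here the scales gave close values. Clec4d, Clec7a and Clec4e were lower in resident-like macrophages on both, by 1.50, 0.79 and 0.72 on the log2 scale in CPM (adjusted p = 5.68e-05, 0.00149 and 0.00564) and by 1.38, 0.67 and 0.60 under pan-leukocyte scaling. Clec4a2 was higher on both, by 0.85 and 0.96. The median over the 9 members was 0.22 in CPM against 0.0011 over all genes.

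**Figure D3:**
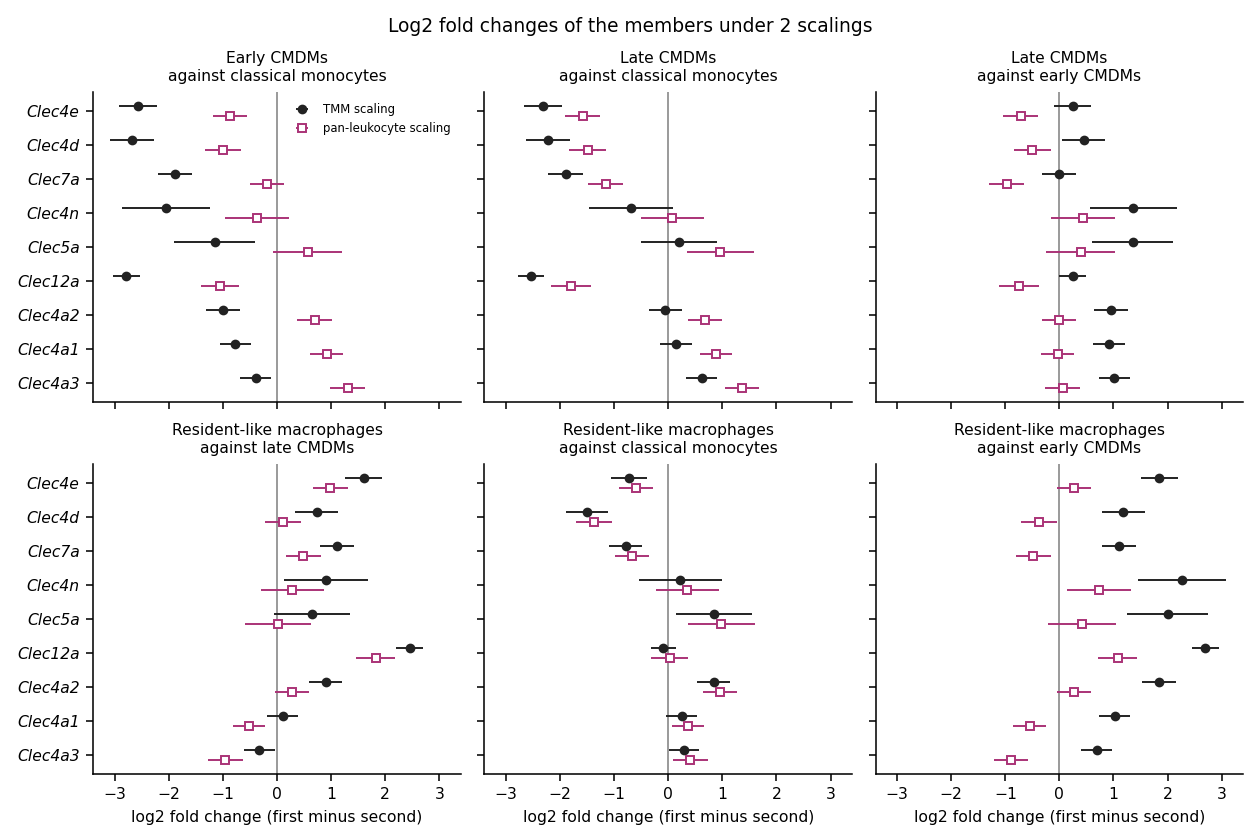
Log2 fold changes of the 9 members in the 6 comparisons (first fraction minus second), as filled circles under TMM scaling and open squares under pan-leukocyte scaling, with bars for 95% intervals from the standard errors. The 2 scalings lay close together for resident-like macrophages against classical monocytes and furthest apart where early CMDMs entered the comparison.

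The make-up of the receptor RNA within a library does not depend on any scaling between libraries. Each member's count was divided by its exon length in kilobases (kb) and expressed as a percentage of the sum over the 9 members. Clec4e, Clec4d and Clec7a together took 57.1% to 62.6% of this sum in classical monocytes, 36.1% to 37.1% in early CMDMs, 23.4% to 25.6% in late CMDMs and 35.4% to 37.2% in resident-like macrophages. Clec4a1, Clec4a2 and Clec4a3 took 25.2% to 31.8%, 53.9% to 55.3%, 61.5% to 64.5% and 42.8% to 47.7% of it. For these Clec4a genes the 4 fractions did not overlap, in the order late CMDM, early CMDM, resident-like and classical monocyte. These shares were chosen with earlier results of these data known, so the separation is a description and not a test. Per kb, Clec4d was the highest of the 9 in classical monocytes at 180 ± 38.4 CPM per kb (SD, n = 3), and Clec4a3 in late CMDMs at 116 ± 10.9. Without division by length Clec4e was the highest in classical monocytes, at a mean of 554 CPM against 288 for Clec4d. The order between genes and the size of the shares thus depend on the exon lengths used. Clec12a took 2.38% to 3.72% in classical monocytes and 3.26% to 3.57% in resident-like macrophages, against 0.821% to 1.67% in the CMDM libraries. Clec5a took 0.411% to 1.71% over the libraries and was the lowest member except in late CMDMs, where Clec12a was lower in all 3 libraries.

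**Figure D4:**
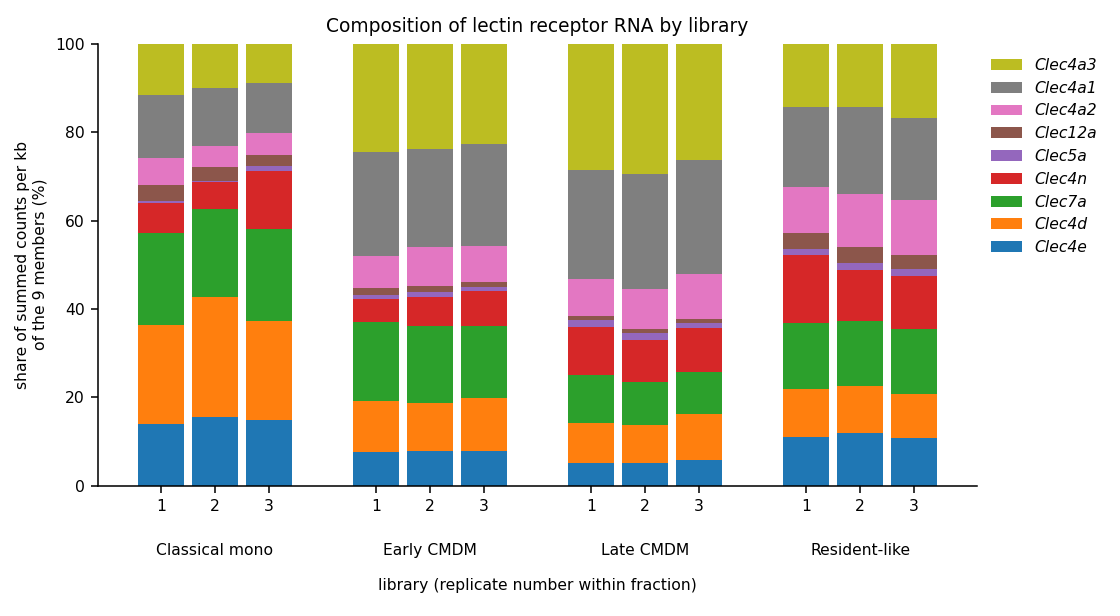
Stacked shares (%) of the 9 members in their summed counts per kb, 1 bar per library. The bottom segments (Clec4e, Clec4d and Clec7a) made up 57.1% to 62.6% of the bar in classical monocytes and 23.4% to 25.6% in late CMDMs, and the top segments (Clec4a1 and Clec4a3) were widest in late CMDMs.

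The sum of the 9 members was 1853 ± 300.0 CPM in classical monocytes, 520 ± 131 in early CMDMs, 816 ± 76.7 in late CMDMs and 1446 ± 89.4 in the resident-like fraction. Per 1000 pan-leukocyte counts it was 412 ± 56.4, 375 ± 1.45, 303 ± 16.01 and 350 ± 22.3. The second set of sums spanned a narrower range than the first, with late CMDMs lowest.

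The signalling partners followed more than 1 course. Of 15 adaptor and proximal signalling genes, all tested, 12 were called lower in early CMDMs than in classical monocytes (median log2 fold change -1.29 against -0.013 over all genes), where 20.6% of all genes were lower. Under pan-leukocyte scaling 9 were higher and 3 lower, against 90.8% and 2.09% of all genes. In late CMDMs against classical monocytes 10 were lower in CPM (17.5% of all genes), and 5 were higher and 5 lower under pan-leukocyte scaling (59.8% and 5.25%). In resident-like macrophages against late CMDMs 9 were higher and 1 lower in CPM (12.7% and 15.4%), and 3 were higher and 4 lower under pan-leukocyte scaling (2.76% and 52.1%). Fcer1g, the adaptor of Clec4e, Clec4d and Clec4n, was at 670 to 760 CPM in classical monocytes, 341 to 631 in early CMDMs, 787 to 1046 in late CMDMs and 698 to 885 in resident-like macrophages. Its late CMDM libraries thus stood above the classical monocyte libraries (0.36 ± 0.18, adjusted p = 0.144, not called), where its partners Clec4e and Clec4d were over 4-fold lower. Per 1000 pan-leukocyte counts Fcer1g was at 144 to 171 in classical monocytes and at 311 to 369 in the CMDM fractions. All 6 CMDM libraries lay above the classical monocyte libraries, and the CMDM fractions overlapped each other.

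Syk was at 480 ± 75.2 CPM in classical monocytes, 135 ± 29.0 in early CMDMs, 206 ± 13.5 in late CMDMs and 288 ± 43.3 in the resident-like fraction (SD, n = 3). Card9 had another order, with 61.6 ± 2.78 CPM in resident-like macrophages against 23.0 ± 3.68, 12.3 ± 3.28 and 20.8 ± 1.69 in the other fractions (2.96-fold higher than in late CMDMs, log2 fold change 1.57 ± 0.15, adjusted p = 1.69e-06). Tyrobp, the DAP12 gene, was at 1016 ± 150 CPM in classical monocytes, 324 ± 80.1 in early CMDMs, 610 ± 37.6 in late CMDMs and 723 ± 105 in the resident-like fraction, and Hcst, the DAP10 gene, was at 19.4 CPM or less in all libraries. Of the 3 phosphatases, Ptpn6 was lower in late CMDMs than in classical monocytes by 1.11 ± 0.12 (adjusted p = 1.91e-06), Inpp5d by 0.67 ± 0.17 (adjusted p = 0.00688) and Ptpn11 by 0.33 ± 0.087 (adjusted p = 0.00683). Of all genes, 17.5% were called lower in this comparison. Under pan-leukocyte scaling 1 of the 3 phosphatases was called higher and 1 lower in it, against 59.8% and 5.25% of all genes.

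**Figure D5:**
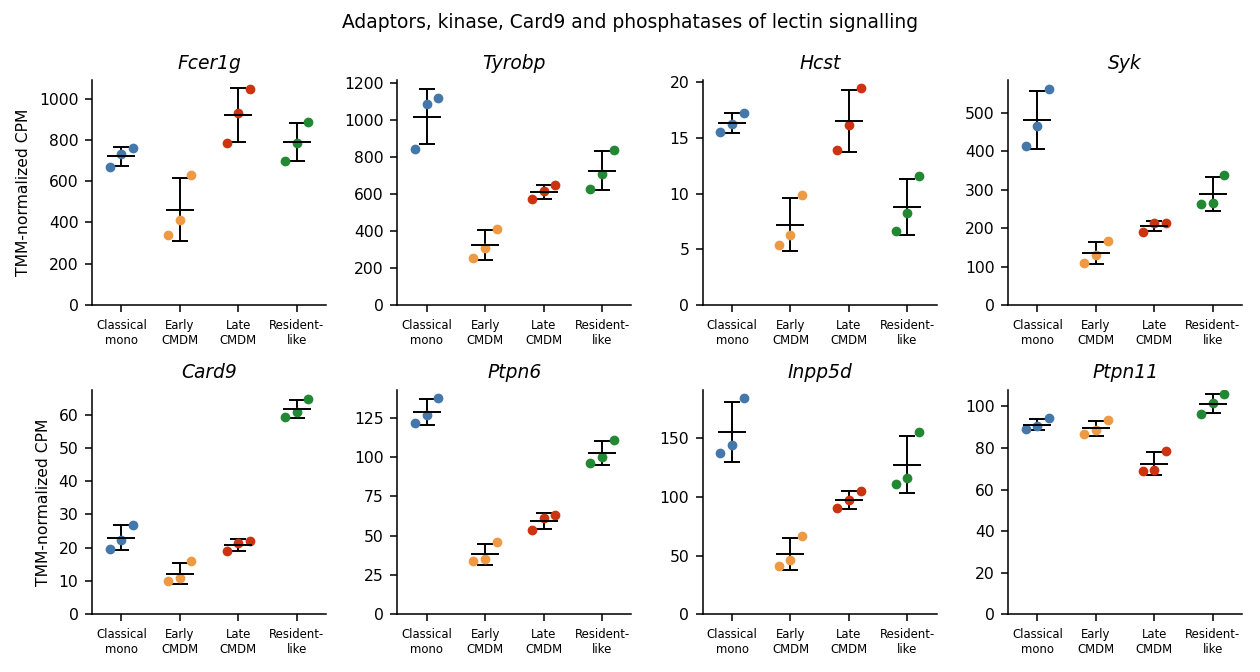
TMM-normalized CPM (linear axes from 0) of adaptors (Fcer1g, Tyrobp, Hcst), Syk, Card9 and phosphatases (Ptpn6, Inpp5d, Ptpn11), with points for the 3 libraries of each fraction sorted by value and bars for mean ± SD. Card9 was highest in resident-like macrophages at 61.6 CPM, and Fcer1g had its highest mean in late CMDMs.

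Of 16 genes that Syk and Card9 signalling is known to induce, 15 were tested. In early CMDMs against classical monocytes 4 were called higher and 10 lower (median -0.64), against 24.2% and 20.6% of all genes, and under pan-leukocyte scaling 9 were higher and 1 lower, against 90.8% and 2.09%. Il1b, the interleukin-1β gene, was at 1153 ± 124 CPM in classical monocytes, 191 ± 42.3 in early CMDMs, 247 ± 26.8 in late CMDMs and 1050 ± 80.1 in the resident-like fraction, the same order of fractions as Clec4e, Clec4d and Clec12a, with late above early CMDMs by mean. Egr3, a transcription factor gene, had the opposite course, at 38.9 ± 14.1, 167 ± 31.4, 106 ± 17.3 and 59.8 ± 3.86 CPM, and was 4.30-fold higher in early CMDMs than in classical monocytes (2.10 ± 0.22, adjusted p = 2.81e-06). In resident-like macrophages against late CMDMs 7 of the 15 were higher and 3 lower in CPM (median 0.60), Il1b by 2.09 ± 0.15 (adjusted p = 5.05e-08) among the first and Il23a by -1.29 ± 0.13 (adjusted p = 2.56e-06) among the second. Under pan-leukocyte scaling the balance turned, with 3 higher and 5 lower (median -0.026), against 2.76% and 52.1% of all genes.

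Of 18 other lectin genes, 15 were tested. Among the neighbours of the members, Clec4b1 was at 24.0 ± 7.32 CPM in classical monocytes, 5.87 ± 0.758 in early CMDMs, 13.9 ± 3.98 in late CMDMs and 103 ± 14.7 in the resident-like fraction, 7.43-fold higher there than in late CMDMs (2.89 ± 0.23, adjusted p = 7.45e-07). Clec4a4 followed Clec4a2 in its order of fractions at a lower level, with 14.8 ± 1.24 CPM in resident-like macrophages and 3.27 ± 1.39 in early CMDMs. Clec9a, a marker of a dendritic cell subset, was at 7.19 to 10.1 CPM in classical monocytes and at 0.885 CPM or less in the other 9 libraries. In resident-like macrophages against late CMDMs 7 of the 15 lectins were called higher and 1 lower, led by the Langerhans cell gene Cd207 (4.39 ± 0.18, adjusted p = 3.95e-10) and the dendritic cell gene Ly75 (3.30 ± 0.23, adjusted p = 7.3e-08). Under pan-leukocyte scaling 6 were higher and 3 lower in that comparison, against 2.76% and 52.1% of all genes. In early CMDMs against classical monocytes 3 were higher and 11 lower in CPM (24.2% and 20.6% of all genes), and 8 were higher and 2 lower under pan-leukocyte scaling (90.8% and 2.09%). In late CMDMs against classical monocytes 3 were higher and 8 lower in CPM (18.1% and 17.5%), and 7 were higher and 4 lower under pan-leukocyte scaling (59.8% and 5.25%).

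The genes whose 4 fraction means of log2 CPM lay closest to those of a member, each centred on its own mean, were searched among 18876 genes with a mean of at least 1 CPM. For Clec12a the nearest that were not members were Zbtb32, Gm36723 and AI504432 (root mean square difference 0.091 to 0.11), for Clec4d Rubcnl, Cd2 and Prss30 (0.044 to 0.10), for Clec4e Tnfrsf9, Kynu and Il18r1 (0.072 to 0.080) and for Clec4n Lyz2, Wdfy4 and Gm46224 (0.11 to 0.14). The likeness rests on 4 means and on the scale used. The member closest to Clec4d and to Clec4e was Clec7a (0.32 and 0.31), at rank 106 for Clec4d and at rank 83 for Clec4e among all genes. For Clec12a the closest member was Clec4e (0.34, rank 45).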

How the data were processed

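Bulk RNA-seq counts of 12 libraries, grouped by their labels into 4 fractions of 3, were analysed. To make the deposited counts, the authors trimmed reads with cutadapt 4.1, mapped them with Bowtie2 2.4.5 to one strand of the reference RNA of GRCm38, and summed raw counts per gene symbol, so reads shared by paralogues could be split. All columns were used. The counts were tested with edgeR 4.0.16 in R 4.3.3 (TMM, filterByExpr, robust quasi-likelihood test over all 12 libraries, Benjamini-Hochberg over 22118 genes, threshold 0.05, 6 comparisons), after a test of the code on simulated data. TCC, which the study used, was not run, and its elimination step was run as an alternative (DEGES, 3 rounds). Other alternatives were DESeq2 1.42.0, RLE size factors, library size only, pan-leukocyte scaling, no filter, a replicate block, fits to the 6 libraries of each comparison, a minimum log2 fold change of 1 and leaving out each library. The members, the gene lists and the shares per kb were chosen with earlier results of these data known. Named list genes were the adaptors, Syk, Card9, phosphatases and neighbouring lectins, and at most 3 others per comparison with the largest called change. Total counts were 12537178 to 19844113 per library, so 3 counts correspond to 0.151 to 0.239 CPM. CPM per kb used the exon union length in GENCODE.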

Additional observations from a re-analysis of the deposited data

How the results depend on the processing

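Calls of Clec4d, Clec4e, Clec7a and Clec12a as lower in early and late CMDMs than in classical monocytes were kept under every alternative except pan-leukocyte scaling, where Clec7a in early CMDMs was not called. With DEGES 53 of the members' values kept their direction and side of the threshold and 1 lost a call, Clec4a3 in early CMDMs against classical monocytes. Pan-leukocyte scaling moved the number of members called in late CMDMs against classical monocytes from 5 to 8. Relative to leukocyte RNA the log2 fold changes with a turned sign were, in early CMDMs against classical monocytes, 0.92 (Clec4a1), 0.70 (Clec4a2), 1.30 (Clec4a3) and 0.57 (Clec5a), in late CMDMs against classical monocytes 0.69 (Clec4a2) and 0.071 (Clec4n), in late against early CMDMs -0.035 (Clec4a1), -0.0094 (Clec4a2), -0.50 (Clec4d), -0.71 (Clec4e) and -0.74 (Clec12a), in resident-like macrophages against late CMDMs -0.52 (Clec4a1), against classical monocytes 0.025 (Clec12a), and against early CMDMs -0.55 (Clec4a1), -0.90 (Clec4a3), -0.39 (Clec4d) and -0.48 (Clec7a). The share of higher among called genes went from 54% to 97.7%, 50.8% to 91.9%, 45.1% to 0.826%, 45.1% to 5.03%, 45.7% to 53.8% and 46% to 1.48% in the 6 comparisons, in the order early and late CMDMs against classical monocytes, late against early CMDMs, and resident-like macrophages against late CMDMs, classical monocytes and early CMDMs. Library size alone shifted the median gene of the resident-like comparisons by -0.13 to -0.17, with shares of 28%, 24.1% and 31.5%, and turned Clec4a1 against late CMDMs to -0.027, and the cause was not tested.

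In late against early CMDMs 3 members were called without the filter and 3 at a minimum log2 fold change of 1, and leaving out a library gave 3 to 7. In resident-like macrophages against late CMDMs 8 were called from those libraries alone and 3 at a minimum log2 fold change of 1, which left 1 against classical monocytes. Clec7a in late against early CMDMs, near 0, was 0.0015 with DESeq2, 0.0012 with RLE size factors, 6.4e-05 from those libraries alone and 0.0068 with the replicate block. With 1 library left out it ran from -0.15 to 0.17, Clec4a2 and Clec5a in late CMDMs against classical monocytes from -0.14 to 0.032 and from -0.062 to 0.94, and Clec4n in resident-like macrophages against classical monocytes from -0.016 to 0.83. Of 324 values with a library left out, 296 kept their direction and side of the threshold, 15 lost a call, 5 gained one and 8 changed sign. Where a fraction was left with 2 libraries the spread was pooled over the fractions.

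The replicate numbers were not used to pair the libraries in the main fit, as the labels do not say whether same-numbered libraries share mice. The deviations of same-numbered libraries correlated over 0.1 in 4 of 18 pairs (median r = 0.059). Of differently numbered pairs, 1 of 36 did (median r = -0.031). Of 12 libraries, 10 correlated best with their own number, and a fit with a replicate block was run as an alternative. With the replicate block 9, 5, 5, 6, 5 and 9 members were called in the 6 comparisons, and Clec4a3 (resident-like against late CMDMs, -0.34, adjusted p = 0.0499) and Clec5a (resident-like against classical monocytes, 0.96, adjusted p = 0.049) gained a call. No 2 replicates agreed within counting noise. The lowest count of a member in a library was 113 (Clec5a in early CMDMs), and the part of depth in the calls was not tested. The low share of leukocyte RNA in early CMDMs limits every comparison that holds them.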
